A study of Mus musculus with 6 samples.

Results

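Glycolysis, the pentose phosphate pathway and the tricarboxylic acid (TCA) cycle were followed here through 43 genes of NIH3T3 cells, which are immortalized mouse embryonic fibroblasts. The genes were taken by name as enzymes of these pathways, their regulators and the plasma membrane carriers of lactate, and they make up 43 of the 55401 genes counted. Of the 43 genes, 42 passed the filter on low counts and were tested. Fbp1, a gluconeogenic fructose bisphosphatase, did not pass it, since it held 4 counts in all, all of them in 1 library. The RNA-Seq experiment had 6 libraries made from poly(A) RNA, namely 2 of cells with an empty vector kept in DMSO (EV), 1 of cells expressing the TAZ-CAMTA1 fusion protein kept in DMSO (TC), and 3 of TAZ-CAMTA1 cells given aurintricarboxylic acid (TC + ATA). All cells were seeded for 16 h and then kept for 48 h in medium with DMSO or with 10 μM ATA. TAZ-CAMTA1, the fusion found in epithelioid hemangioendothelioma, acts with the TEAD transcription factors, and ATA is the compound that the study examined as a disruptor of the binding of TAZ to TEAD. The expression was exogenous, in a cultured line of another cell type than the tumour, and the clonal origin of the cells is not given in the sources used here.

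In glycolysis, glucose is phosphorylated by hexokinase, committed by phosphofructokinase and split by aldolase, and the lower steps then yield ATP and pyruvate. Pyruvate is either reduced to lactate and exported or enters the mitochondrion through pyruvate dehydrogenase, which the pyruvate dehydrogenase kinases hold inactive, to feed the TCA cycle. The pentose phosphate pathway branches off after the hexokinase step and supplies NADPH and ribose phosphate. Proliferating and transformed cells are known for high glucose use and lactate release, and several steps have isozymes that differ in regulation and tissue distribution.

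The libraries held 58471484 to 74413193 counts, so that counting error was small for nearly all of these genes, and the number of libraries limited the precision. Levels are given as CPM, which is a gene's count relative to the library size adjusted by TMM. TC had 1 library, and the labels do not say whether the other libraries of a group came from separate cultures. The p-values then rest on the spread between the EV and TC + ATA libraries, which may be technical. The 2 EV libraries stood further apart from each other, with a chi-square of 63.0 per degree of freedom over genes, than the TC + ATA libraries, with 6.02 to 6.74. Among the genes followed here, EV library 1 was above EV library 2 in 35 of the 42 genes that had counts in EV and below it in 7, with a median ratio of 1.19 for members of at least 1 CPM against 0.997 for all genes tested. Fibroblast markers summed to 15002 to 17358 CPM in EV, 19285 in TC and 18989 to 20192 in TC + ATA, although Thy1 fell in TC (log2 fold change −1.47 ± 0.10 standard error, adjusted p = 1.03e-05, edgeR quasi-likelihood test). Of the 9 fibroblast markers tested 2 were higher and 2 lower in TC. The epithelial markers summed to 1.30 to 2.10 CPM in EV, 3.83 in TC and 2.60 to 3.93 in TC + ATA, the endothelial markers to 1.82 to 2.55, 4.02 and 3.15 to 3.91 CPM, and the leukocyte markers to 3.51 to 4.22, 8.26 and 9.45 to 15.6 CPM. Of the 3, 6 and 3 tested in these lists, 1 each was called higher in TC, namely Krt14, Cdh5 and Lyz2 (log2 fold changes 1.09, 1.55 and 3.92), and Epcam was between 0 and 0.0575 CPM. Their part in the results was not tested. In bulk RNA, fewer cells of a kind and less RNA per cell cannot be told apart. The mouse genes of the fusion partners, Wwtr1 and Camta1, lay at 104 to 110 and 15.4 to 18.9 CPM in EV and at 139 and 19.2 CPM in TC, but these levels were not used to check the labels, because the species of the expressed sequence is not given in the sources used here.

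In TC cells, the called genes of glycolysis and of the pentose phosphate pathway were higher except for the phosphofructokinase Pfkm, whereas the called genes around pyruvate dehydrogenase were lower. The hexokinase Hk2, the phosphofructokinase Pfkp, the regulator Pfkfb3, transaldolase (Taldo1) and the enolase Eno1 rose 2.32-fold to 3.25-fold, whereas the lactate dehydrogenase Ldhb and the kinase Pdk4 fell to 0.323 and 0.397 of their EV means. Of the 42 genes tested, 18 passed an adjusted p of 0.05 in TC versus EV (edgeR quasi-likelihood test, Benjamini-Hochberg adjustment over 18539 genes), 13 of them higher and 5 lower. The background was 28.0% of all genes tested, 14.8% called higher and 13.2% called lower, against 42.9% of these 42 genes. The median log2 fold change was 0.06 for the 42 genes and −0.03 for all genes tested, and the extremes were 1.70 (Hk2) and −1.63 (Ldhb). None of the 42 genes reached the absolute log2 fold change of 2 that the study used as a limit, which 3.64% of all genes passed together with the adjusted p. An unadjusted p under 0.05 was met by 19 of the 42 genes and by 7120 of the 18539 genes tested. The TC library lay above both EV libraries in 19 of the 42 genes and below both in 9, where 38.9% and 40.0% of all genes tested (78.9% in all) did so. The count of 18 rested on which EV libraries entered: it was 31 without EV library 1 (23 higher, 8 lower) and 25 without EV library 2 (13 higher, 12 lower), when the remaining EV library was assumed to vary like the TC + ATA libraries. With only the EV and TC libraries in the fit it was 12 (9 higher, 3 lower). Of the 18 genes, 11 were called in every alternative to the fit other than the fold limit, and 8 of these were higher (Hk2, Pfkp, Pfkfb3, Taldo1, Eno1, G6pdx, Pgk1 and Slc16a1) and 3 lower (Ldhb, Pdk4 and Pdk1).

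**Figure D1:**
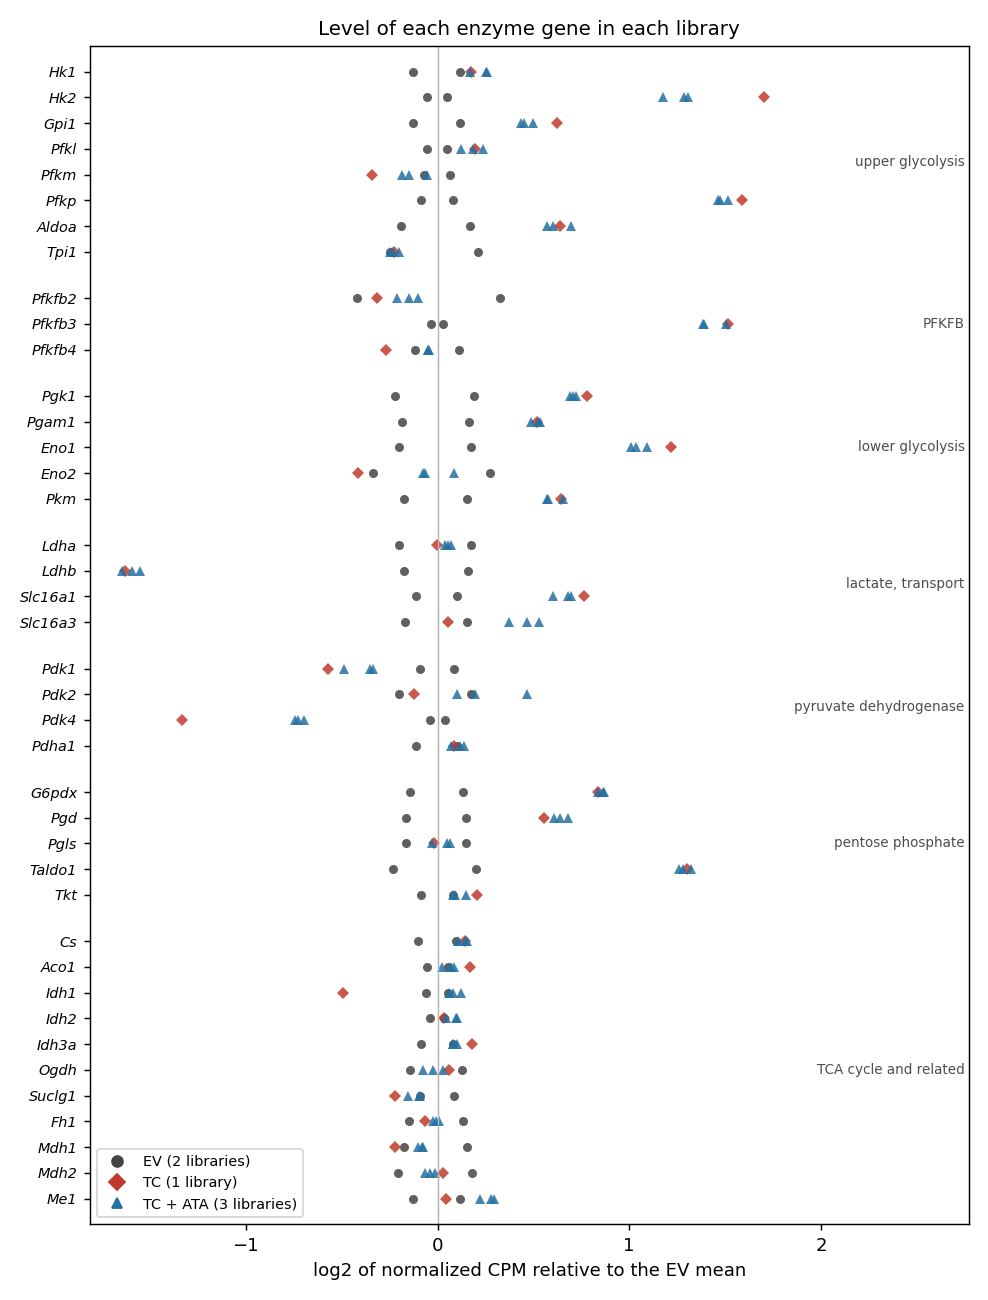
Level of each gene of at least 1 CPM in each library, as the log2 of its normalized CPM relative to the EV mean, with genes ordered by pathway. Circles are the 2 EV libraries, the diamond is TC and triangles are the 3 TC + ATA libraries. Hk2, Pfkp, Pfkfb3, Eno1 and Taldo1 lie above 1 in all 4 TC and TC + ATA libraries, Ldhb lies below −1 in these 4, and of the TCA cycle genes Idh1 in TC lies furthest from 0.

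By pathway, the calls in TC versus EV are set here beside the 28.0% of all genes tested that were called. In upper glycolysis, from hexokinase to triosephosphate isomerase, 4 of 9 genes were higher and 1 was lower. In lower glycolysis, 4 of 5 were higher. Among the 3 listed Pfkfb genes 1 was higher, among the 4 genes of lactate metabolism and transport 1 was higher and 1 lower, and among the 4 genes around pyruvate dehydrogenase 2 were lower. In the pentose phosphate pathway 3 of 5 were higher, and of the 11 genes of the TCA cycle and related reactions 1 was lower. The log2 ratio of the summed CPM of the TCA group, TC to EV, was −0.01 with both EV libraries. It was 0.10 without EV library 1 and −0.11 without EV library 2. Without EV library 1 the log2 fold changes of Pfkfb2 and Pfkfb4 were −0.65 and −0.39, against −0.315 and −0.27 with both EV libraries. The difference between these groups of genes was not tested.

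The promoters of the genes that rose together were read from RefSeq, as the 250 bases upstream of each annotated start in GRCm38.p6, for 42 of the 43 genes (not Idh3a), and a gene counted when at least 1 of its starts held the motif on either strand. The core of the hypoxia response element, ACGTG, was present in 18.5% of 27025 genes, in 16 of the 42 genes here, and in 7 of the 13 genes higher in TC (Aldoa, Hk2, Pfkfb3, Pgam1, Pgk1, Pkm and Slc16a1). It was present in 1 of the 5 lower genes (Pfkm) and in 8 of the other 24. The base composition of these windows was not matched, and the motif is part of the E-box CACGTG, which 6.86% of all genes and 8 of the 42 held. The TEAD motif CATTCC was present in 14.4% of all genes and in 6 of the 42, among them Aldoa and Eno1 of the 13 higher genes. A match describes the letters only and no binding was measured. Windows that hold a match are shown for 6 of the genes higher in TC, written 5′ to 3′ on the strand of the gene, with the matches to ACGTG (or its reverse complement CACGT) and to CATTCC in capitals. They include Hk2, the gene with the largest rise in TC versus EV, and Aldoa, the one gene of the 13 with both motifs.
Hk2, chr6:82774455-82774704, minus strand: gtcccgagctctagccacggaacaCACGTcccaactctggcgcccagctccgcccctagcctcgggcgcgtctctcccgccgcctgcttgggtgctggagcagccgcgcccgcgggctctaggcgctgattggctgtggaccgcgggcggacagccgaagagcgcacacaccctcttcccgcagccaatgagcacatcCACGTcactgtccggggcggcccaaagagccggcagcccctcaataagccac
Pgk1, chrX:106186850-106187099, plus strand: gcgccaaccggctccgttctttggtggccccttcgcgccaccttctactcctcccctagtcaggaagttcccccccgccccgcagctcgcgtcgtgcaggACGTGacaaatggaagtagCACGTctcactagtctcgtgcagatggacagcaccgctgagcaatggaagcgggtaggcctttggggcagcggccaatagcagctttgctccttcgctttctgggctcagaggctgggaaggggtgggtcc
Slc16a1, chr3:104638414-104638663, plus strand: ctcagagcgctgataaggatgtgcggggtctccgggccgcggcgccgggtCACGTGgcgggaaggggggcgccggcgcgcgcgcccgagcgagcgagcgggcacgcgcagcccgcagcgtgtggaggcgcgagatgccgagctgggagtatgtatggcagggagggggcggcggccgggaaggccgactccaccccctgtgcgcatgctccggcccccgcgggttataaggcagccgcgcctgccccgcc
Pgam1, chr19:41911621-41911870, plus strand: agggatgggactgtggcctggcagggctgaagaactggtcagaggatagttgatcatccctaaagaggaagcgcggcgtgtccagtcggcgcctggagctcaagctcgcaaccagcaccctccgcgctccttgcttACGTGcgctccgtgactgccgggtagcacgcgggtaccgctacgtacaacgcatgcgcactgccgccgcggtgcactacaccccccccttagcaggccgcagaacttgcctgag
Aldoa, chr7:126799255-126799504, minus strand: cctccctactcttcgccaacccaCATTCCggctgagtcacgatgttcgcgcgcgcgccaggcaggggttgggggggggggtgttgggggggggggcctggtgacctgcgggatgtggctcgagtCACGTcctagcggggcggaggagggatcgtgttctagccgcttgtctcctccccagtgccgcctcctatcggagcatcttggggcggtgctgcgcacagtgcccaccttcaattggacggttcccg
Eno1, chr4:150236947-150237196, plus strand: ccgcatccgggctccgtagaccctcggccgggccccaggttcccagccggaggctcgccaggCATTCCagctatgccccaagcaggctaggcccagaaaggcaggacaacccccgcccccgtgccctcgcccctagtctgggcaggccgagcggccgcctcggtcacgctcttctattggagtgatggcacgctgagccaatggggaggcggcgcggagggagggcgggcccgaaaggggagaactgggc
In Slc16a1 the capitals span both strands of 1 E-box, and in Hk2 and Pgk1 they mark 2 separate matches each. Aldoa and Eno1 have 3 listed starts each, and CATTCC was found upstream of 1 start of Aldoa and 2 of Eno1, whose windows overlap and share the match.

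At the entry of glycolysis, Hk2 gave the largest rise of the 42 genes tested in TC versus EV. Hk2 (chr6:82725025-82774454, minus strand) encodes the inducible, mitochondria-associated hexokinase of muscle, fat and many tumour cells, and it lay at 31.8 and 29.6 CPM in EV, 99.997 CPM in TC and 75.0, 76.0 and 69.4 CPM in TC + ATA. The TC library was the highest and the 3 TC + ATA libraries stood between it and EV without overlap. Against EV its log2 fold change in TC was 1.70 ± 0.09 (standard error, adjusted p = 2.29e-06, edgeR quasi-likelihood test), and ATA-treated cells differed from TC by −0.45 ± 0.08 (adjusted p = 0.0641). Hk1, the constitutive hexokinase, was at 64.1 and 54.0 CPM in EV, 66.6 in TC and 66.5 to 70.6 in TC + ATA and was not called (0.17 ± 0.11, adjusted p = 0.28). Per exonic kilobase, Hk2 accordingly made up 41.5% and 43.9% of the Hk1 and Hk2 signal in EV, 68.2% in TC and 59.9% to 60.6% in TC + ATA, so that the order of both hexokinases was turned in all 4 TAZ-CAMTA1 libraries.

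Gpi1, the glucose phosphate isomerase, was at 592 and 499.5 CPM in EV, 839.7 in TC and 738 to 769.9 in TC + ATA, a rise of 0.62 ± 0.11 (adjusted p = 0.00302, edgeR quasi-likelihood test). With only the EV and TC libraries in the fit, which leaves the spread to the EV pair, its adjusted p was 0.0587.

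Phosphofructokinase, the committed step, has a liver (Pfkl), a muscle (Pfkm) and a platelet (Pfkp) subunit, and these moved apart. Pfkp (chr13:6579768-6648777, minus strand) rose from 28.2 and 25.2 CPM in EV to 80.1 CPM in TC and 73.7 to 76.3 CPM in TC + ATA, a log2 change of 1.59 ± 0.09 (adjusted p = 3.29e-06) without ATA and 1.48 ± 0.07 (adjusted p = 8.13e-07) with ATA, both against EV (edgeR quasi-likelihood test). All 4 TAZ-CAMTA1 libraries were above both EV libraries. Pfkm fell slightly in TC, from 113 and 103 to 85.4 CPM (−0.34 ± 0.09, adjusted p = 0.0245), and the 95.3 to 104 CPM of TC + ATA overlapped EV. The call for Pfkm was lost with only the groups compared (adjusted p = 0.187) and without TC + ATA library 2 or 3 (0.0668 and 0.0572). Pfkl was not called, at 148 and 138 CPM in EV, 164 in TC and 156 to 168 in TC + ATA. Per exonic kilobase Pfkp remained the least abundant of the 3, at 3.51% and 3.61% in EV, 10.7% in TC and 8.91% to 9.89% in TC + ATA, while Pfkm went from 57.9% and 58.3% to 45.6% and then 49.5% to 50.4%. The size of this gap depends on the lengths, which take in all annotated exons (13401 bases for Pfkp and 3340 for Pfkm). Not divided by length, Pfkp held 9.74% and 9.45% in EV, 24.4% in TC and 21.4% to 23.3% in TC + ATA. Pfkm held 26.0% in TC on that scale. Pfkp shares 748 exonic bases with Pitrm1 on the other strand, as Gpi1 shares 741 with Gm26762 and G6pdx 418 with Ikbkg. On the same strand, Pkm shares 767 with Gm49759 and Pfkm 341 with Gm26513. Whether the counting used strand is not stated.

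The Pfkfb genes encode the bifunctional enzymes that set the level of a fructose bisphosphate that activates phosphofructokinase, and Pfkfb3 is known among them for its high kinase activity. Pfkfb3 (chr2:11471433-11554077, minus strand) was at 8.10 and 8.46 CPM in EV, 23.6 in TC and 21.6 to 23.5 in TC + ATA. Its log2 fold changes against EV were 1.51 ± 0.10 in TC (adjusted p = 1.14e-05) and 1.43 ± 0.08 in TC + ATA (adjusted p = 2.75e-06, edgeR quasi-likelihood test), and its EV libraries lay close together. Pfkfb4, at 8.46 and 9.93 CPM in EV, 7.62 in TC and 8.87 to 8.90 in TC + ATA, and Pfkfb2, at 4.63 and 7.74, 4.97 and 5.35 to 5.75 CPM, were not called. Pfkfb3 therefore went from 31.1% and 26.5% of the 3 genes per exonic kilobase in EV to 58.2% in TC and 52.4% to 54.4% in TC + ATA. Another gene of the family, Pfkfb1, is not in the list or in these shares and is named after its values were seen. It was at 5.37 and 5.27 CPM in EV, 4.51 in TC and 3.91 to 4.08 in TC + ATA. It was called lower in TC + ATA versus EV (−0.41 ± 0.12, adjusted p = 0.026, edgeR quasi-likelihood test) and not in TC versus EV (−0.24 ± 0.16, adjusted p = 0.325).

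Aldolase and triosephosphate isomerase split into a gene that rose and a gene that did not. Aldoa, the main aldolase of muscle and cultured cells, was at 792 and 618 CPM in EV, 1099.6 in TC and 1047 to 1141 in TC + ATA (0.64 ± 0.14, adjusted p = 0.00814, TC versus EV, edgeR quasi-likelihood test), and it held 99.88% to 99.95% of the aldolase signal per exonic kilobase in the 6 libraries, with Aldoc at most at 0.826 CPM. With only the EV and TC libraries in the fit its adjusted p was 0.0667. Tpi1 was at 849 CPM in EV library 1 and 618 in EV library 2, and the 628 CPM of TC and 618 to 638 CPM of TC + ATA lay inside or next to that range (−0.22 ± 0.16, adjusted p = 0.349). Without EV library 2 Tpi1 was called lower (−0.44, adjusted p = 3.88e-06).

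In lower glycolysis, where ATP and pyruvate are formed, 4 abundant enzymes rose together. Eno1 (chr4:150236721-150248879, plus strand), the ubiquitous enolase, was at 872 and 672 CPM in EV, 1793 in TC and 1551 to 1646 in TC + ATA, a log2 change of 1.22 ± 0.14 (adjusted p = 0.000234) without ATA and 1.05 ± 0.11 (adjusted p = 0.000102) with ATA, both against EV (edgeR quasi-likelihood test). Its reads cannot be told apart fully from those of near-identical copies, mainly Eno1b and Gm4735, whose counts came to 82.3% of its own. With the counts of the copies added the log2 fold change was 1.22 as well, so that the rise is one of the group of sequences and its split between them is uncertain. Pgk1, the phosphoglycerate kinase, went from 809 and 607 CPM to 1214 CPM in TC and 1144 to 1168 CPM in TC + ATA (0.78 ± 0.15, adjusted p = 0.00403). Pkm, the pyruvate kinase of most cells, went from 1876 and 1495 to 2630.2 and 2503 to 2654 CPM (0.64 ± 0.13, adjusted p = 0.00696), and Pgam1, the phosphoglycerate mutase, from 548 and 431 to 702 and 687 to 708 CPM (0.52 ± 0.13, adjusted p = 0.0164). In these 4 genes EV library 1 was the higher of the EV pair and still below every TAZ-CAMTA1 library. The calls of Pkm and Pgam1 were lost with only the EV and TC libraries in the fit (adjusted p = 0.148 and 0.12). Eno2, the neuronal enolase, was not called, at 36.3 and 55.3 CPM in EV, 34.3 in TC and 43.4 to 48.6 in TC + ATA.

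**Figure D2:**
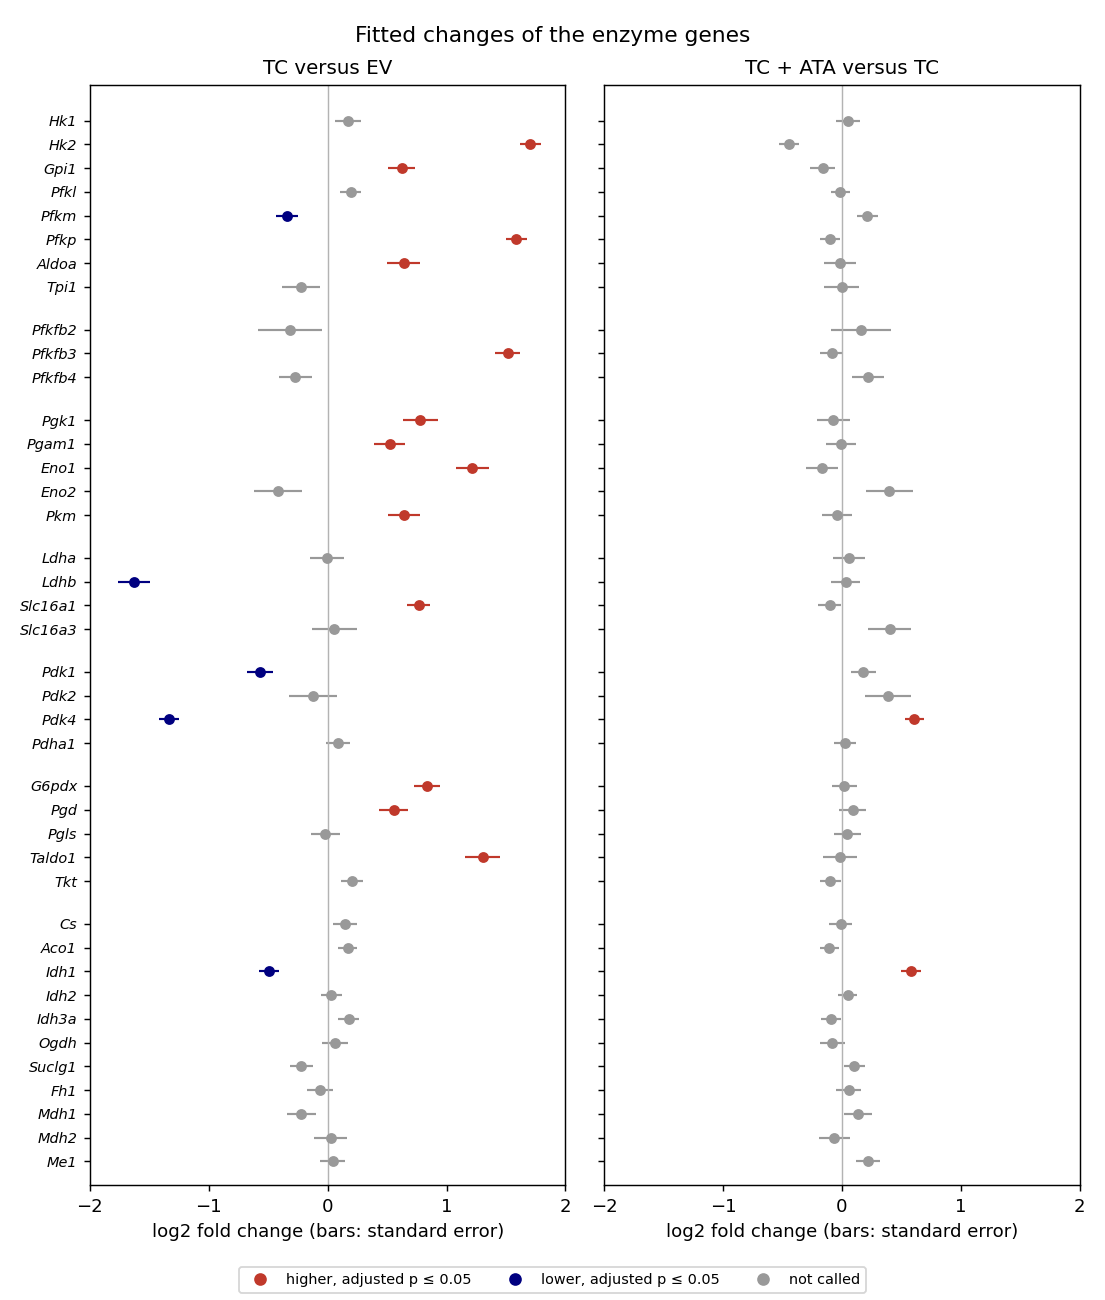
Log2 fold change of each gene of at least 1 CPM in TC versus EV (left) and in TC + ATA versus TC (right), with the standard error as a bar. Both panels contain the single TC library. Coloured points passed an adjusted p of 0.05 (edgeR quasi-likelihood test): 18 in the left panel, and Pdk4 and Idh1 in the right one.

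At the exit of glycolysis, Ldhb gave the largest fall. Ldhb (chr6:142490249-142507957, minus strand) encodes the heart-type subunit of lactate dehydrogenase, known for the direction from lactate to pyruvate, and it lay at 118 and 93.7 CPM in EV, 34.2 in TC and 33.8 to 36.1 in TC + ATA. Both EV libraries stood well above the other 4, which differed little among themselves. The log2 fold change was −1.63 ± 0.14 in TC (adjusted p = 3.6e-05) and −1.60 ± 0.09 in TC + ATA (adjusted p = 2.55e-06) against EV, and 0.03 ± 0.12 between TC + ATA and TC (adjusted p = 0.968, edgeR quasi-likelihood test). A processed pseudogene copy held 9.45% as many counts, and with it the value in TC versus EV was −1.65. Ldha, the muscle-type subunit known for making lactate, was at 1203 and 925 CPM in EV, 1061 in TC and 1093 to 1117 in TC + ATA and was not called (−0.0035 ± 0.14, adjusted p = 0.99). The sign of Ldha followed the EV library it was set against: it was called higher without EV library 1 (0.19, adjusted p = 0.00117) and lower without EV library 2 (−0.18, adjusted p = 0.00142). The share of Ldhb per exonic kilobase, which does not depend on the scale between libraries, was 17.1% and 17.6% in EV, 6.37% in TC and 6.12% to 6.44% in TC + ATA.

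The carrier genes Slc16a1 and Slc16a3 encode the monocarboxylate transporters MCT1 and MCT4. Slc16a1 rose from 86.1 and 74.3 CPM in EV to 136 CPM in TC and 122 to 129.9 CPM in TC + ATA (0.76 ± 0.10, adjusted p = 0.000481, TC versus EV, edgeR quasi-likelihood test), above EV in all 4 libraries. Slc16a3 was much less abundant, at 4.47 and 3.57 CPM in EV, 4.18 in TC and 5.21 to 5.81 in TC + ATA. It was called in TC + ATA versus EV (0.46 ± 0.14, adjusted p = 0.0334) and not in TC versus EV (0.06 ± 0.19, adjusted p = 0.863) or TC + ATA versus TC (0.40 ± 0.18, adjusted p = 0.542), and its call was lost without EV library 2 and without each TC + ATA library.

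Around pyruvate dehydrogenase, both called genes were kinases that inactivate the complex, and both were lower. Pdk4 (chr6:5483351-5496309, minus strand), the kinase induced by fasting and fatty acids, was at 111 and 117 CPM in EV, 45.3 in TC and 70.3, 68.9 and 68.2 in TC + ATA. TC was the lowest, and TC + ATA lay between TC and EV with no overlap. TC differed from EV by a log2 fold change of −1.33 ± 0.08 (adjusted p = 6.92e-06), TC + ATA from TC by 0.61 ± 0.08 (adjusted p = 0.0132) and TC + ATA from EV by −0.72 ± 0.06 (adjusted p = 1.79e-05, edgeR quasi-likelihood test). Pdk1, which is best known as a hypoxia-inducible kinase, was at 46.5 and 52.6 CPM in EV, 33.4 in TC and 35.3 to 39.3 in TC + ATA (−0.57 ± 0.11, adjusted p = 0.00442, TC versus EV). Pdk2, at 8.58 and 6.62 CPM in EV, 6.97 in TC and 8.15 to 10.5 in TC + ATA, and Pdha1, a catalytic subunit of the complex, at 223 and 192, 219.9 and 218 to 228 CPM, were not called. Pdk4 made up 78.4% and 79.0% of the 3 kinase genes per exonic kilobase in EV, 66.5% in TC and 70.7% to 72.7% in TC + ATA, and Pdk1 and Pdk2 the rest. The fourth kinase gene, Pdk3, is not in the list or in these shares and is named after its values were seen. It was at 62.7 and 51.2 CPM in EV, 67.6 in TC and 70.8 to 73.6 in TC + ATA, and it was called in TC + ATA versus EV (0.35 ± 0.09, adjusted p = 0.0126, edgeR quasi-likelihood test) and not in TC versus EV (0.25 ± 0.11, adjusted p = 0.146).

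In the pentose phosphate pathway, the genes that rose were 2 dehydrogenases of the oxidative branch, which make NADPH, and transaldolase of the non-oxidative branch. Taldo1 (chr7:141392199-141402968, plus strand), which exchanges carbon units with glycolysis, was at 169.7 and 126 CPM in EV, 364 in TC and 353 to 369 in TC + ATA, a log2 change of 1.30 ± 0.14 (adjusted p = 0.000194) without ATA and 1.29 ± 0.12 (adjusted p = 3.69e-05) with ATA, both against EV (edgeR quasi-likelihood test). G6pdx, the first enzyme of the pathway, was at 106 and 87.9 CPM in EV, 173 in TC and 173 to 177 in TC + ATA (0.84 ± 0.11, adjusted p = 0.000467, TC versus EV). Pgd, the phosphogluconate dehydrogenase, was at 239 and 193 CPM in EV, 318 in TC and 329.9 to 347 in TC + ATA (0.55 ± 0.12, adjusted p = 0.00793). All 3 were above EV in all 4 TAZ-CAMTA1 libraries. Pgls, the lactonase between both dehydrogenases, was at 77.4 to 96.1 CPM in EV and 84.9 to 90.8 CPM in the other libraries, and Tkt, transketolase, at 219 to 246 and 247 to 269 CPM, and neither was called.

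In the TCA cycle and its related reactions, the fold changes moved with the EV library that TC was set against. Of the 11 genes, which include citrate synthase (Cs), the aconitase Aco1, fumarase (Fh1), the malate dehydrogenases and malic enzyme (Me1), 1 was called in TC versus EV, namely Idh1, and the log2 fold changes of the 11 ran from −0.49 to 0.18 with a median of 0.03. Without EV library 1, the log2 fold changes of Cs, Aco1, Idh3a, Ogdh and Mdh2 ran from 0.19 to 0.25. Without EV library 2, those of Suclg1, Fh1, Mdh1 and Mdh2 ran from −0.38 to −0.16. That of Idh1 stayed between −0.55 and −0.45 with each EV and TC + ATA library left out. Idh1 (chr1:65158616-65186500, minus strand), the cytosolic and peroxisomal NADP-dependent isocitrate dehydrogenase, was at 186 and 172 CPM in EV, 127 in TC and 186, 194 and 189 in TC + ATA. The TC library alone was low, and the TC + ATA libraries lay at or just above the EV values. TC differed from EV by a log2 fold change of −0.49 ± 0.09 (adjusted p = 0.00281), TC + ATA from TC by 0.58 ± 0.08 (adjusted p = 0.0207) and TC + ATA from EV by 0.09 ± 0.06 (adjusted p = 0.323, edgeR quasi-likelihood test). Both calls rest on the 1 TC library, and with only EV and TC in the fit the adjusted p of the first was 0.056. Idh2, the mitochondrial NADP-dependent enzyme, at 378 and 359 CPM in EV, 377 in TC and 380.0 to 396 in TC + ATA, and Idh3a, a subunit of the NAD-dependent enzyme of the cycle, at 101 and 89.7, 108 and 101 to 102 CPM, were not called. Idh1 made up 28.8% and 28.3% of the 3 genes per exonic kilobase in EV, 21.6% in TC and 28.1% to 29.0% in TC + ATA. Mdh1, at 179.7 and 143 CPM in EV, 139 in TC and 151 to 153 in TC + ATA, and Mdh2, at 360.0 and 275, 324 and 304 to 314 CPM, were not called, and both EV libraries enclosed or nearly enclosed the other values. Me1 was called in TC + ATA versus EV only (0.26 ± 0.08, adjusted p = 0.0285), at 70.6 and 59.6 CPM in EV, 67.1 in TC and 75.9 to 79.7 in TC + ATA, and this call was lost without each TC + ATA library. Fbp2, the muscle fructose bisphosphatase, was at 0.367 to 0.804 CPM in the 6 libraries and was not called in any comparison.

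**Figure D3:**
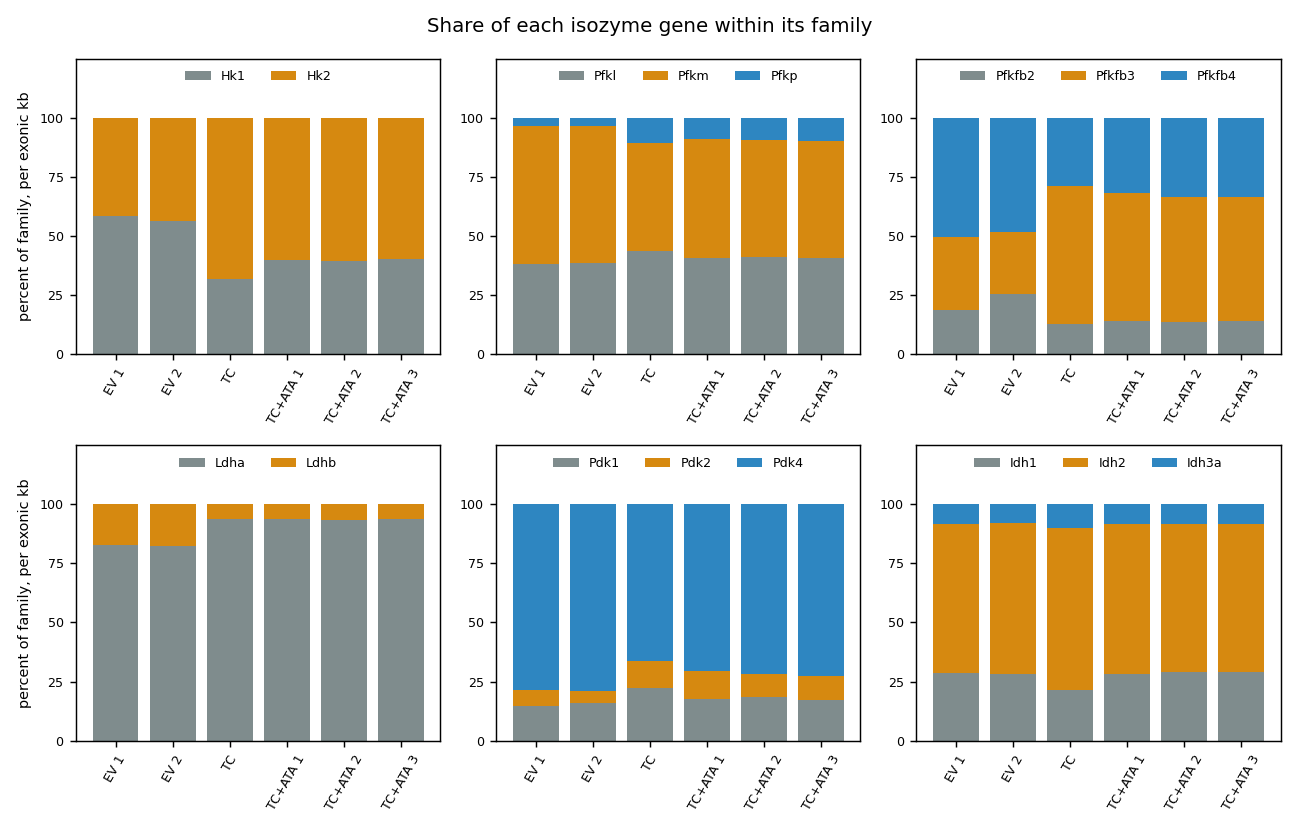
Share of each isozyme gene among the listed genes of its family in each library, as a percent of their summed CPM per exonic kilobase. Hk2, Pfkp and Pfkfb3 take a larger share, and Ldhb and Pdk4 a smaller one, in TC and the 3 TC + ATA libraries than in both EV libraries, and Idh1 is lower in TC alone.

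Summed over the 43 genes, the level was 11577 and 9384 CPM in the EV libraries, 14201 CPM in TC and 13646 to 14236 CPM in TC + ATA. Per exonic kilobase, Pkm (337 CPM per kb), Ldha (321) and Pgk1 (316) were the highest of the 43 in the EV mean. In TC, Pgk1 (541), Pkm (526) and Aldoa (378) were the highest, and Ldha stood at 321. Eno1 stood at 333 in TC without the counts of its near-identical copies, which came to 82.3% of its own. Its place in the order in TC is therefore uncertain. The order also depends on the lengths, which take in all annotated exons of a gene. In CPM not divided by length, Pkm (2630), Eno1 (1793) and Pgk1 (1214) were the highest in TC. The ratio of TC to the EV mean of the summed CPM was 1.72 for lower glycolysis, 1.55 for the pentose phosphate pathway, 1.53 for the Pfkfb genes and 1.30 for upper glycolysis. It was 0.993 for the TCA cycle and related genes, 0.986 for the lactate genes and 0.807 for the genes around pyruvate dehydrogenase. As a share of all counts, without TMM normalization, the 43 genes went from 1.16% and 1.02% in EV to 1.38% in TC and 1.36% to 1.38% in TC + ATA. TC and TC + ATA were above both EV libraries in the sums of upper and lower glycolysis, the Pfkfb genes and the pentose phosphate pathway, while the EV libraries enclosed the other values for the TCA cycle and the lactate genes. These sums carry no test, since an exact two-sided rank test of 2 libraries against 3 cannot give a p under 0.2, and TC has 1 library. They are dominated by a few abundant genes with annotated near-identical copies, and without those genes the sum over all was higher in TC than in EV by 0.20 on the log2 scale, against 0.44 with them.

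**Figure D4:**
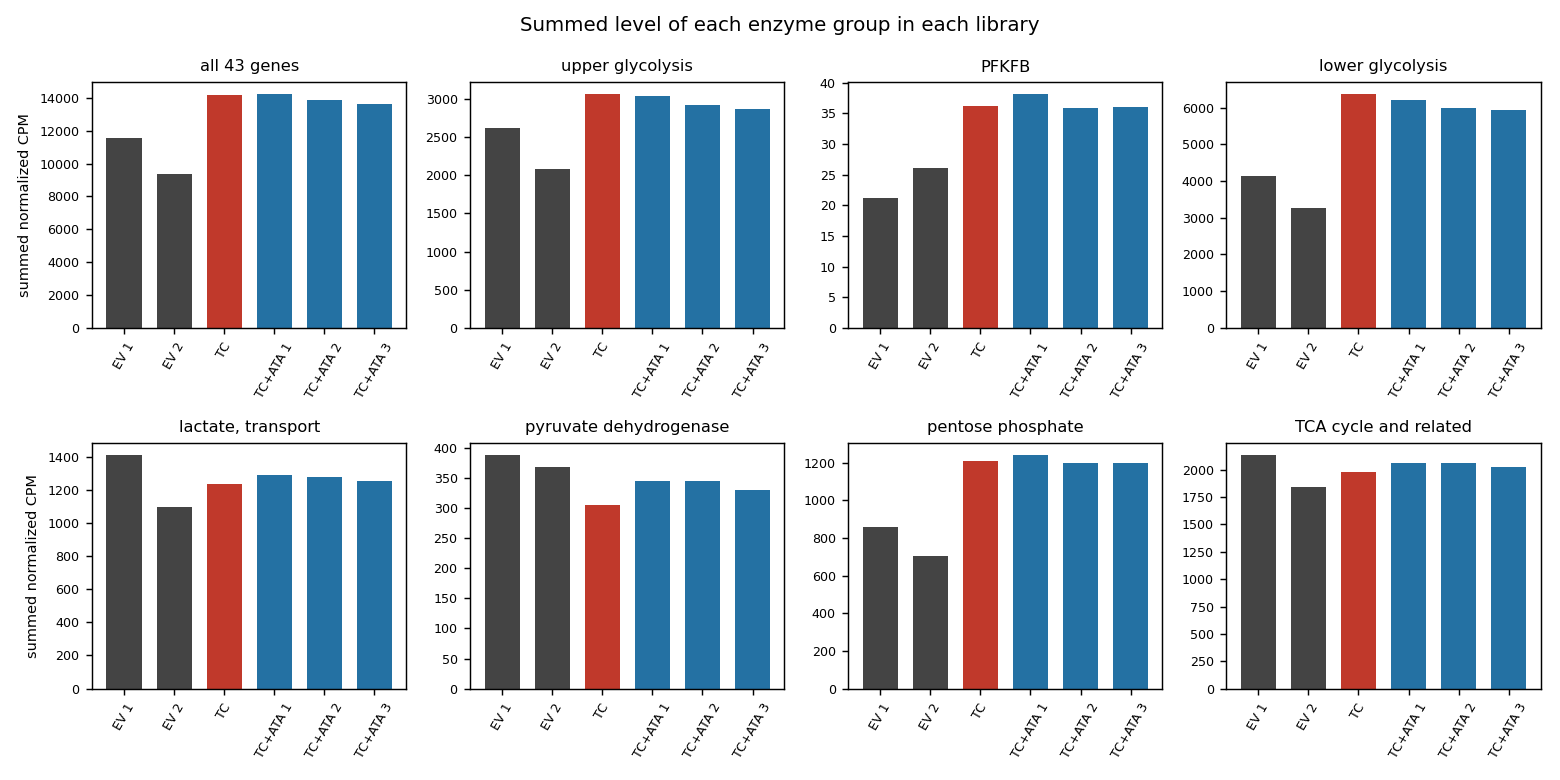
Summed normalized CPM of all 43 genes and of each enzyme group in each library, with every vertical axis starting at 0. Lower glycolysis goes from 4142 and 3260 CPM in EV to 6373 CPM in TC, whereas the 1977 CPM of the TCA group in TC lie between the EV values of 2136 and 1843.

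The effect of ATA on these genes was asked by TC + ATA versus TC, and 2 of the 42 genes tested passed, Pdk4 and Idh1, both higher with ATA. The background was 0.583% of all genes tested, 0.426% higher and 0.156% lower, and 0.0539% also passed the study's fold limit, which no member did. All 3 TC + ATA libraries lay above TC in 18 of the 42 genes and below it in 12, where 30.5% and 32.7% of all genes (63.2% in all) did so. The median log2 fold change was 0.03 for the 42 genes and 0.0033 for all genes. An unadjusted p under 0.05 was met by 4 of the 42, the others being Hk2 and Pfkm, and by 1781 of the 18539 genes tested. Both called genes had changed the opposite way in TC versus EV, but both comparisons contain the 1 TC library in opposite roles, so that any peculiarity of that library enters both. Their calls were lost without each of the TC + ATA libraries in turn, with adjusted p from 0.0927 to 0.115 for Pdk4 and from 0.127 to 0.179 for Idh1, while the log2 fold changes stayed between 0.60 and 0.62 and between 0.56 and 0.59. The count was 0 with each of these 3 libraries left out in turn. With only TC and TC + ATA in the fit, the spread comes from the TC + ATA libraries alone. The count was then 9, where 1428 of 18000 genes tested were called. Those higher with ATA were Pdk4, Idh1, Mdh1, Me1, Pfkm and Eno2, and those lower were Hk2, Gpi1 and Eno1. With either EV library left out, more of the 42 genes and more of all genes were called as well. Hk2, at 0.735 of the TC level, had an adjusted p of 0.000711 with only TC and TC + ATA in the fit (edgeR quasi-likelihood test). It was also called lower by DESeq2 (adjusted p = 0.00586) and by edgeR without the low-count filter (adjusted p = 0.00512). In the fit reported Hk2 was not called (adjusted p = 0.0641, edgeR quasi-likelihood test). Nor was it called under the other scalings, the filter at a mean of 1 CPM or the replicate block, or without any of the TC + ATA libraries. All these fits contain the single TC library. Among genes of at least 1 CPM, the other members of the largest 5 by size were Slc16a3 (0.40 ± 0.18) and Eno2 (0.40 ± 0.19), neither called.

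In TC + ATA versus EV, 18 of the 42 genes were called, 15 higher and 3 lower, against 36.6% of all genes tested, 18.0% higher and 18.6% lower. The median log2 fold change was 0.11 for the 42 genes and −0.01 for all genes, and the study's fold limit was passed by no member and by 3.87% of all genes. The TC + ATA libraries lay wholly above EV in 22 of the 42 genes and wholly below it in 3, where 28.7% and 30.1% of all genes (58.8% in all) did so. The higher genes were the 13 named for TC, with Me1 and Slc16a3 besides, and the lower ones were Ldhb, Pdk4 and Pdk1. This comparison and TC versus EV share the EV libraries, so the like direction of 16 genes in both is no independent count. Of the 13 higher genes, Taldo1 was at 1.30 in TC and 1.29 in TC + ATA, G6pdx at 0.84 and 0.86, Pgam1 at 0.52 and 0.51 and Hk2 at 1.70 and 1.26 on the log2 scale against EV. With either EV library left out, more of the 42 genes and more of all genes tested were called. The median log2 fold change of the 42 genes was then 0.21 without EV library 1 and 0.11 without EV library 2.

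The other genes of these pathways, 67 by name and 53 tested, gave 13 higher and 8 lower calls in TC versus EV, with a median log2 fold change of 0.01. The background there was 14.8% of all genes tested called higher and 13.2% called lower. In TC + ATA versus TC they gave 0 calls by edgeR's quasi-likelihood test, where 7 had an unadjusted p under 0.05 and 0.583% of all genes were called. DESeq2 called 1 there, Pcx, the pyruvate carboxylase that refills the TCA cycle, which is named after its values were seen and lay at 57.0 and 51.6 CPM in EV, 35.1 in TC and 48.1 to 52.4 in TC + ATA. Those called in TC versus EV with an absolute log2 fold change of at least 1 were Eno1b (1.25, one of the copies of Eno1), Tigar (1.03), Rbks (1.43), Me3 (1.73) and Shpk (−1.73). Tigar, a phosphatase known to slow glycolysis in favour of the pentose phosphate pathway, was at 8.81 and 8.24 CPM in EV, 17.4 in TC and 16.5 to 17.9 in TC + ATA. Me3, the mitochondrial NADP-dependent malic enzyme, was at 0.842 and 0.852 CPM in EV, 2.81 in TC and 3.13 to 3.48 in TC + ATA. The ribokinase Rbks and the sedoheptulose kinase Shpk were at most at 1.80 CPM in any library.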

How the data were processed

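Bulk RNA-Seq of NIH3T3 cells was read from 6 libraries, 2 EV, 1 TC and 3 TC + ATA, grouped by the sample titles. The authors selected poly(A) RNA, sequenced paired-end reads, aligned them with HISAT2 2.2.1 to GRCm38.p6 per the labels and the paper's methods and counted reads per gene with featureCounts, and they deposited raw counts as whole numbers for 55401 genes. Choices made on filtering and on reads shared between genes are already in these counts, and the annotation release and the use of strand are not given in the sources used here. Library totals ran from 58471484 to 74413193 counts, and 0 columns of other samples were found.

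Tests used edgeR 4.0.16 in R 4.3.3 (TMM, filterByExpr, quasi-likelihood test, all 6 libraries in one fit with 3 residual degrees of freedom, Benjamini-Hochberg adjustment over 18539 genes), and an adjusted p of at most 0.05 was a call. Standard errors came from the F statistic. DESeq2 1.42.0 was an alternative, and the code was tested on simulated counts. Symbols, positions and exonic lengths came from GENCODE M21, which holds 55141 of the IDs. An exonic length is the union of all annotated exons of a gene. Copies with at least 95% identity over 200 bases were found with blastn 2.17.0.

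The list, the other gene lists and the motifs were chosen with earlier results of these data known. Per-library values are given for genes called against EV with an absolute log2 fold change of at least 0.5, for the 5 largest changes of at least 1 CPM with ATA, for genes called there and for isozyme families. Genes outside the list are named when called in TC versus EV with an absolute log2 fold change of at least 1, or with ATA. Eno3, Pfkfb1, Pdk3 and Pcx were added after their values were seen. Alternatives were DESeq2, only the groups compared, other scalings and filters, a replicate block, the study's fold limit, shares of all counts, shares not divided by length, each EV and TC + ATA library left out and, chosen after seeing the data, near-identical copies added.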

Additional observations from a re-analysis of the deposited data

How the results depend on the processing

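Of 1662 log2 fold changes of these genes recomputed under the alternatives, 1546 kept their side of the threshold, and 84 changed sign where neither fit called the gene, all with a size of at most 0.315 in the fit reported. With each EV and TC + ATA library left out in turn, the members called ran from 17 to 31 in TC versus EV, from 0 to 9 in TC + ATA versus TC and from 16 to 33 in TC + ATA versus EV, and all genes called in TC + ATA versus TC from 10 to 1469. With only the groups compared, 9 members and 1428 genes were called in TC + ATA versus TC. Over all genes that comparison gave 108 calls in the fit reported, 321 with DESeq2 and 350 without the low-count filter. The study's fold limit left 0 members in each comparison and 674, 10 and 717 of all genes in TC versus EV, TC + ATA versus TC and TC + ATA versus EV. Scaling by library size moved the median log2 fold change of all genes in TC versus EV from −0.03 to −0.13, with 2072 of 5231 calls higher in place of 2735 of 5191, and in TC + ATA versus EV it gave 2711 of 7095 in place of 3340 of 6789, and 13 of 19 members higher in place of 15 of 18.

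With 1 library left out, genes whose sign turned with a call were Ldha (−0.18 to 0.19) and Mdh2 (−0.16 to 0.22) in TC versus EV, and Eno2 (−0.30 to 0.33), Ldha (−0.11 to 0.24), Fh1 (−0.13 to 0.13) and Mdh2 (−0.21 to 0.15) in TC + ATA versus EV. Each range ends at the fits without EV library 1 and without EV library 2. The cause was not tested. Without genes that have near-identical copies, the summed level changed by 0.20 (all genes), −0.42 (lower glycolysis, where Eno2 alone was left) and 0.74 (lactate genes) on the log2 scale in TC versus EV, and by 0.0309, 0.40 and −0.0859 in TC + ATA versus TC. As a share of all counts, the log2 ratio was 0.063 for the lactate genes and 0.0747 for the TCA group in TC + ATA versus TC, and −0.42 for the pyruvate dehydrogenase group in TC versus EV. Not divided by length, the share of Pfkl in its family changed by −1.73 percentage points in TC against EV (5.37 per kilobase), and those of Ldha, Slc16a1 and Pdk1 by 5.94, 1.78 and 10.0.

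The labels number EV and TC + ATA libraries alike (1 and 2), but the deviations of same-numbered libraries did not correlate positively (−0.030 and −0.148), so the numbers were not taken as pairs. With the replicate block, which leaves 1 residual degree of freedom, members called were 13, 0 and 16 in TC versus EV, TC + ATA versus TC and TC + ATA versus EV, and genes called 3184, 40 and 4645.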

Other observations

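A list of 18 hypoxia-inducible genes outside glycolysis was read beside the enzymes, since several of the enzymes that rose in TC belong to that response as well. Pdk1, described above as hypoxia-inducible, was lower in TC (log2 fold change −0.57). In TC versus EV 4 of the 18 were higher and 6 lower, with a median log2 fold change of 0.05 (edgeR quasi-likelihood test, 28.0% of all genes tested called). Ero1l, an oxidase of protein folding, was at 57.9 and 54.5 CPM in EV, 198 in TC and 179 to 188 in TC + ATA (1.82 ± 0.08, adjusted p = 1.07e-06, TC versus EV, edgeR quasi-likelihood test). Adm, the peptide hormone adrenomedullin, moved the other way, at 26.3 and 26.8 CPM in EV, 7.26 in TC and 14.3 to 15.6 in TC + ATA. TC differed from EV by −1.87 ± 0.12 (adjusted p = 6.63e-06) and TC + ATA from TC by 1.06 ± 0.11 (adjusted p = 0.00547), the only one of the 18 called there (0.583% of all genes were), and both values contain the single TC library. Ankrd37 was lower in TC (−1.11 ± 0.36, adjusted p = 0.0456) at 0.706 CPM against 1.47 and 1.59 CPM in EV. In TC + ATA versus EV 6 of the 18 were higher and 5 lower, where 18.0% and 18.6% of all genes tested were.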
